A study of Mus musculus with 8 samples.

Results

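Heart RNA was examined for the genes of voltage-gated and potassium channels, chosen as every gene whose mouse symbol begins with Kcn, Cacn, Hcn and a digit, or Scn and a digit, and whose mean level over the 8 libraries was at least 0.5 RPKM (assigned reads scaled to gene length and library size). The rule kept 63 of the 133 such symbols listed among 18656 genes. The mean level chose the members and is given as a description only. Just inside the limit were Kcnd1 at 0.51, Kcna2 at 0.52 and Cacnb4 at 0.53 RPKM, and just outside it Kcnrg at 0.46, Kcnk5 at 0.45 and Kcnt1 at 0.41 RPKM. Of the 63 members, 20 had a mean of at least 10 RPKM, 27 lay between 1 and 10 RPKM, and 16 lay under 1 RPKM. All 63 passed the filter on low counts and were tested.

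The hearts came from 16-day-old C57BL/6 littermates of 4 genotypes that differ in the nuclear receptors ERRα and ERRγ. αHetγWT hearts, the reference, carried a single working ERRα allele and intact ERRγ, αHetγKO hearts lacked ERRγ in cardiomyocytes, αKOγWT hearts lacked ERRα throughout the body, and αKOγKO hearts lacked both. No group was wild type for ERRα. Each genotype had 2 libraries, each from several pooled hearts (3 by the methods, 2 to 3 by the series record), so the spread between libraries is that between pools. ERRγ was deleted with Myh6-Cre, which acts in cardiomyocytes, and the Cre status of the γWT hearts is not given, so that an effect of Cre and the loss of ERRγ cannot be told apart. The αKOγKO mice have a lethal dilated cardiomyopathy at this age, and disease and genotype cannot be told apart either.

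Each heartbeat is carried by a sequence of channel currents. Sodium channels start the action potential, calcium channels sustain it and trigger contraction, potassium channels end it and hold the resting potential, and the HCN channels pass the pacemaker current. A channel is built from pore subunits, which make the conducting path, and auxiliary subunits, which set its amount at the membrane and its gating. ERRα and ERRγ bind DNA at a short site, the ERR response element, and drive genes of energy metabolism in heart muscle.

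The libraries held 28.2M to 36.8M assigned reads. Esrra, the gene of ERRα, lay between 44.9 and 46.7 RPKM in the αHet libraries and between 1.21 and 1.68 RPKM in the αKO libraries. Esrrg, counted over the whole gene, does not check the γKO labels: it lay at 6.43 to 8.23 RPKM in the other 3 genotypes and at 15.2 and 17.6 RPKM in αKOγKO. The αKOγKO libraries stood apart from each other. Replicate 1 held the female transcript Xist at 10.8 RPKM against at most 0.025 RPKM elsewhere, and replicate 2 held the immediate-early genes Fos and Fosb at 203 and 92.5 RPKM against at most 6.24 and 0.83 RPKM elsewhere. Over the members, the median size of the log2 difference between replicates was 0.39 in αKOγKO and 0.13 to 0.20 in the other genotypes, while over all genes it was 0.18 and 0.09 to 0.12. Kcna4, Kcnj15, Kcnj5, Kcns3 and Scn10a differed by more than a log2 unit between the αKOγKO replicates. Results that rest on these genes are given without each of these libraries.

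Markers of several cell types moved with the αKOγKO genotype. The summed RPKM of the 8 cardiomyocyte markers was 34200 to 37600 in the other 6 libraries and 27100 and 31800 in αKOγKO, with none of the 8 at 0. Of the 8, 4 were lower in αKOγKO (Myh6, Pln, Ryr2 and Tnni3), 1 was higher (Actn2) and 3 did not pass the test. Over all genes tested, 21.5% were lower and 20.7% higher. The 10 endothelial markers summed to 526 to 619 and then to 444 and 423, with 8 of the 10 lower. The 7 fibroblast markers summed to 670 to 822 and then to 1500 and 1010, the 7 atrial markers to 2260 to 3240 and then to 3890 and 5100, and the 8 mural markers to 770 to 1420 and then to 2910 and 2300. Of the fibroblast markers 3 were higher (Col1a1, Postn and Tcf21) and 4 did not pass the test. Of the atrial markers 4 were higher (Bmp10, Fgf12, Myl4 and Pam) and 3 did not pass. Most of the mural sum was Acta2, at 2608 and 2012 RPKM in αKOγKO, and of the 8 mural markers 3 were higher (Acta2, Cspg4 and Tagln) and 3 lower (Abcc9, Myh11 and Rgs5), with a median log2 fold change of -0.17. Skeletal muscle markers, 9 of 11 measured, summed to 63.4 to 191 and then to 2630 and 1240, of which the fetal heart actin Acta1 gave 2610 and 1210. Of the 6 of these that were tested 3 were higher (Acta1, Myh8 and Tnnt3) and 3 did not pass. In RNA of whole hearts, fewer cells of a type and less RNA per cell cannot be told apart, and the part of these shifts in the results below was not tested.

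**Figure D1:**
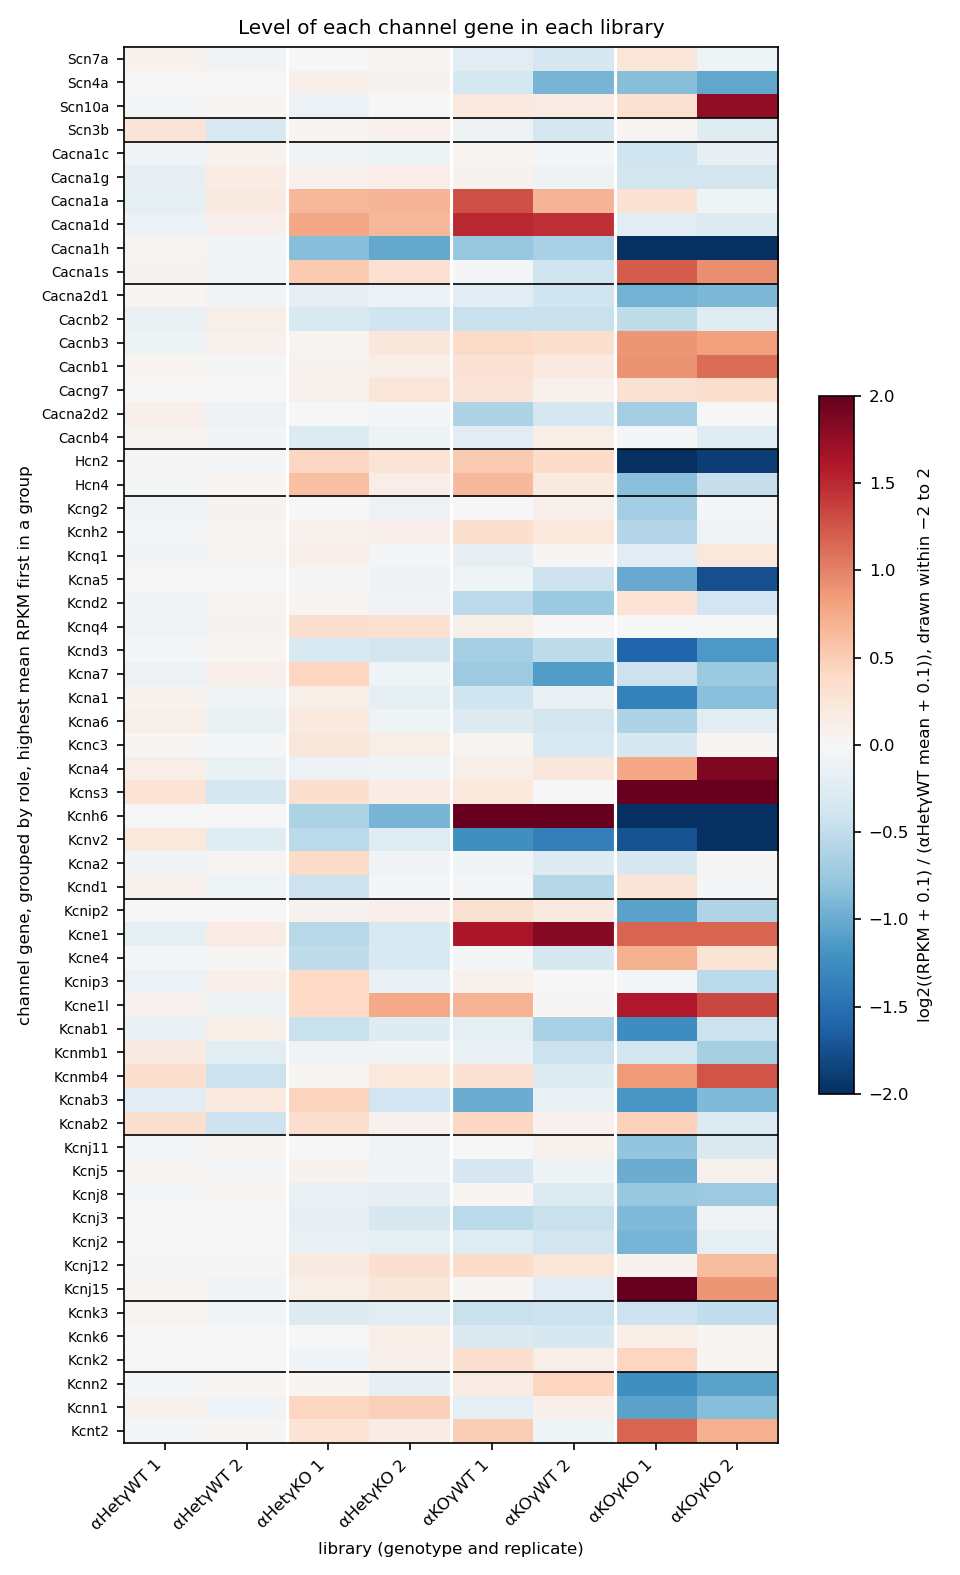
Level of 59 of the 63 channel genes in each of the 8 libraries, as the log2 ratio of RPKM plus 0.1 to the αHetγWT mean plus 0.1, on a colour scale drawn within -2 and 2. Genes are grouped by role (black lines, in the order sodium pore, sodium beta, calcium pore, calcium auxiliary, HCN, voltage-gated potassium pore, potassium auxiliary, inward rectifier, K2P, calcium- or sodium-activated) and ordered by mean level, and columns are libraries grouped by genotype (white lines). In the last 2 columns, αKOγKO, Hcn2, Cacna1h and Kcnh6 are blue and Kcns3 red in both, while Kcnh6, Kcne1 and Cacna1d are red in both αKOγWT columns.

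In αKOγKO hearts 29 of the 63 channel genes were lower and 11 higher than in αHetγWT hearts, and 23 did not pass the test. Of the 11, Kcns3 and Kcna4 reached the limit of 0.5 RPKM only through αKOγKO, so their rises are not independent of the choice of members. The genotype means of Kcna4 were at most 0.48 RPKM elsewhere. Of the 29, Kcnv2 reached the limit only through the αHet genotypes, so its fall is not independent of the choice either. Over all 15076 genes tested, 21.5% were lower and 20.7% higher (edgeR quasi-likelihood test, Benjamini-Hochberg adjusted p under 0.05, 2 libraries per genotype). The median log2 fold change was -0.43 over the members and 0.01 over all genes. Among the 20 members at 10 RPKM or more, 14 were lower and 2 higher, against 10 and 6 of the 27 at 1 to 10 RPKM and 5 and 3 of the 16 below. These steps use the level that chose the members and were not counted over all genes, so they describe the members only. In a fit of the 11949 genes averaging 1 RPKM or more, 3007 were lower and 2842 higher. Both αKOγKO libraries lay below the other 6 libraries for 21 members, where 18.3% of all genes tested did so, and above them for 13 members, where 34.8% did so. The summed RPKM of the members was 662 to 729 in the other 6 libraries and 495 and 579 in αKOγKO. Without αKOγKO replicate 1, 25 of the 29 lower and 9 of the 11 higher members kept their call, and without replicate 2, 25 and 10 did. Fewer members kept their call without an αHetγWT library than without an αKOγKO library, and the same held for calls over all genes tested. The comparisons of the other genotypes below share the αHetγWT libraries with this one.

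**Figure D2:**
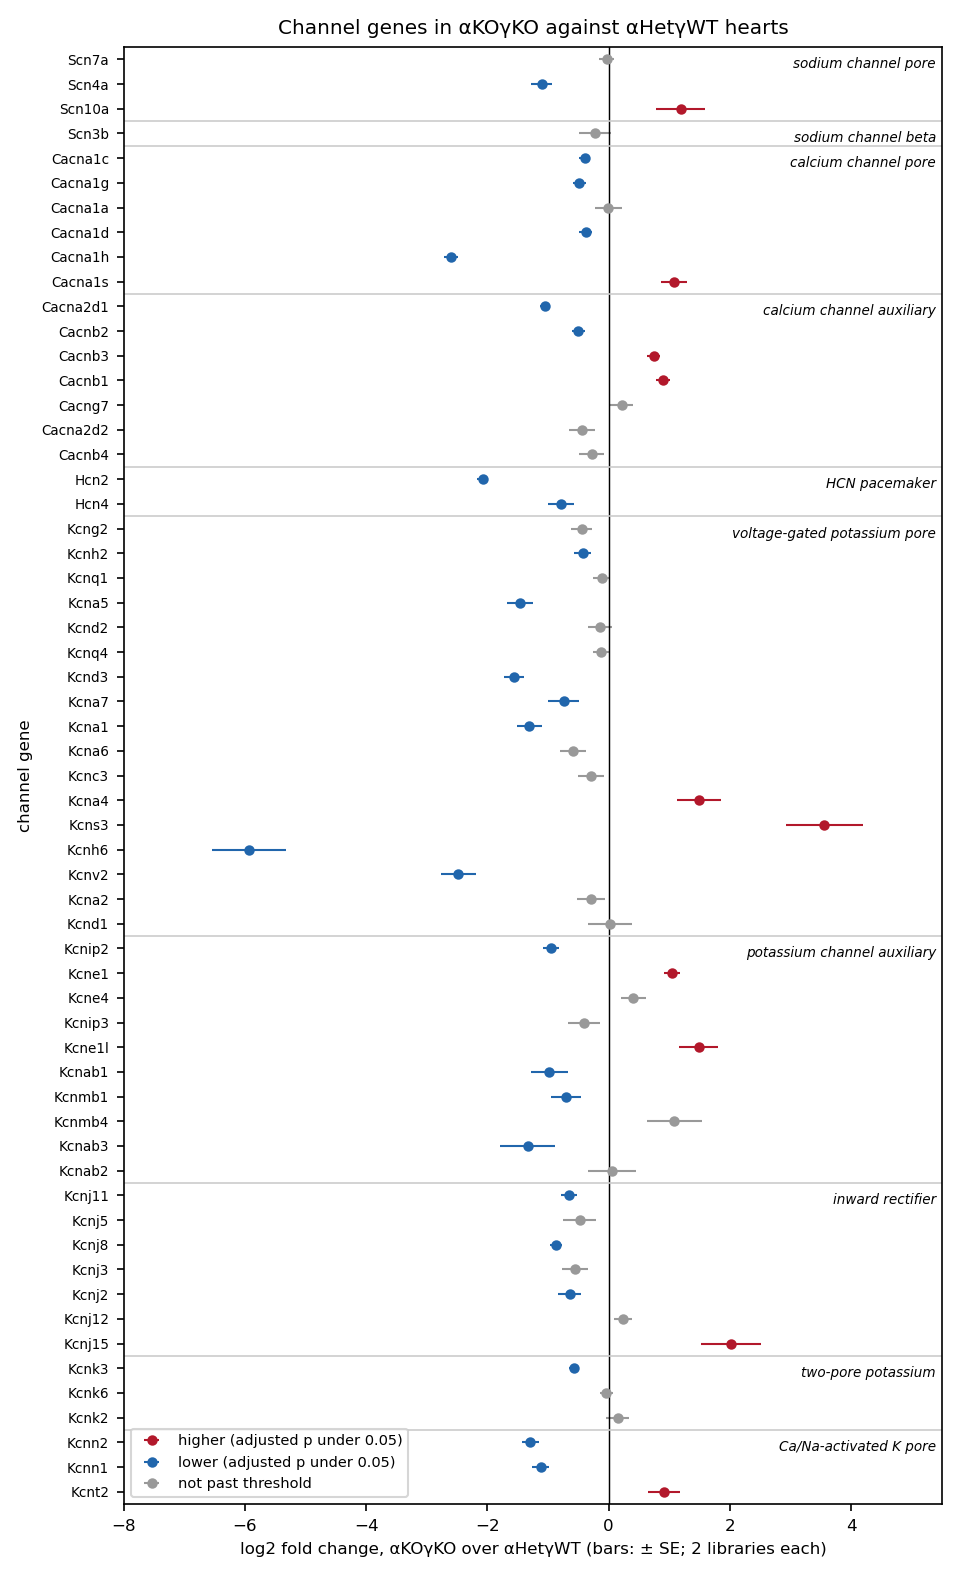
Log2 fold change of 59 of the 63 channel genes in αKOγKO over αHetγWT (horizontal axis; bars are ± SE, 2 libraries each), grouped by role. Blue points are the 26 of these lower and red points the 10 higher at an edgeR adjusted p under 0.05, and grey points the 23 not past it; Kcnh6 lies farthest to the left at -5.93 and Kcns3 farthest to the right at 3.56.

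The pacemaker channel genes Hcn2 and Hcn4 were both lower in αKOγKO hearts, Hcn2 by 4.23-fold. Hcn2 (chr10:79716634-79736108, build GRCm38) stood at 23.6 and 23.02 RPKM (αHetγWT), 31.3 and 28.2 (αHetγKO), 33.4 and 30.1 (αKOγWT) and 5.77 and 6.24 (αKOγKO). The αKOγKO libraries lay below all others with little spread, and the libraries that lacked only 1 receptor lay above the reference. The log2 fold change was -2.08 ± 0.09 (SE, 2 against 2 libraries, edgeR adjusted p = 1.44e-06), and in αKOγWT it was 0.45 ± 0.08 (edgeR adjusted p = 0.0458). Here and below the SE uses a spread estimated over all 8 libraries. The rise in αKOγWT lost its call when any αHetγWT, αHetγKO or αKOγWT library was left out (0.38 to 0.51, adjusted p up to 0.388). Hcn4, the main pacemaker channel of the sinus node, had 3.35 and 3.57 RPKM (αHetγWT), 5.30 and 3.82 (αHetγKO), 5.48 and 3.96 (αKOγWT) and 1.90 and 2.49 (αKOγKO). Its log2 fold change in αKOγKO was -0.79 ± 0.21 (edgeR adjusted p = 0.0171), a call lost without αHetγWT replicate 1 (-0.84), αHetγWT replicate 2 (-0.72) or αKOγKO replicate 1 (-0.61), at adjusted p of 0.0593, 0.0911 and 0.0637.

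The start of Hcn2 is shown because it was the only one of the 42 members with a promoter window in RefSeq (GRCm38.p6, 250 bases before to 50 after a gene's start, 61 windows) that held the ERR response element TNAAGGTCA on either strand. Over all 32851 windows 1.28% held it. The shorter forms AAGGTCA and AGGTCA, which lie within it, were in 4.72% and 16.3% of all windows and, among the members, again in Hcn2 alone. The match lies on the opposite strand and begins 168 bases before the start, and another match to AAGGTCA begins 249 bases before it. The starts of Hcn4 and Kcnh6, channel genes that also fell and whose windows hold none of these letters, are given for comparison. The 3 windows are chr10:79716384-79716683, chr9:58822699-58822998 and chr11:106007898-106008197, all on the plus strand, of which that of Kcnh6 lies around a RefSeq start inside the gene bounds given below, and capitals mark the match to TNAAGGTCA. A match is a description of the letters and not a bound site, and no match concerns only this window.
Hcn2: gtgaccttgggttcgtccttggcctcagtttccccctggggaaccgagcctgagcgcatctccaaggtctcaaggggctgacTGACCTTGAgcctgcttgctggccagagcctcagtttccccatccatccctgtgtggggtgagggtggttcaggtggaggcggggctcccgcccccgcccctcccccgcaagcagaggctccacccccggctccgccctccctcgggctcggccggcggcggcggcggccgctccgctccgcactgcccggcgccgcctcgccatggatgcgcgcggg
Hcn4: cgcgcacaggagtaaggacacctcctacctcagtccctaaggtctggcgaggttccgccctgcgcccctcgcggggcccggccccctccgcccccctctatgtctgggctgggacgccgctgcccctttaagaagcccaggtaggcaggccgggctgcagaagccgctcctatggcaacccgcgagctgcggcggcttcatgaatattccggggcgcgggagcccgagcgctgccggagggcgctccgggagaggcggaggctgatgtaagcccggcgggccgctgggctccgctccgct
Kcnh6: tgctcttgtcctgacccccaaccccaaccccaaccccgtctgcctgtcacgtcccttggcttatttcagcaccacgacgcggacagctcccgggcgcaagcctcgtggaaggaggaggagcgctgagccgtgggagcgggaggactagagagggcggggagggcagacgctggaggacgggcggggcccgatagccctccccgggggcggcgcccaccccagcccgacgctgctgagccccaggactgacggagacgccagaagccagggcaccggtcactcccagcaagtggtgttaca

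Sodium channel pore genes moved in both directions in αKOγKO. Scn4a, the sodium channel of skeletal muscle, went from 3.43 and 3.45 RPKM to 1.86 and 1.63 RPKM (-1.10 ± 0.18, edgeR adjusted p = 0.00121), with αKOγWT at 2.68 and 1.75 RPKM and overlapping αKOγKO. Scn10a, a sodium channel of sensory neurons also reported in the conduction system, had 0.79 and 0.85 RPKM (αHetγWT), 0.75 and 0.82 (αHetγKO), 0.95 and 0.93 (αKOγWT) and 1.04 and 3.05 (αKOγKO). It was high in αKOγKO replicate 2 only, and its log2 fold change of 1.19 ± 0.40 (edgeR adjusted p = 0.0409) was 0.22 without that library (adjusted p = 0.379) and 1.76 without replicate 1. The call was also lost without any other single library (1.13 to 1.25, adjusted p of 0.0587 to 0.174). Markers of nerve cells summed to 10.2 and 16.4 RPKM in the αKOγKO replicates and to 8.83 to 12.6 RPKM elsewhere. Scn7a, another pore gene, and Scn3b, of a beta subunit that tunes gating, did not pass the test, at -0.04 and -0.23.

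Of the 6 calcium channel pore genes 4 were lower and 1 was higher in αKOγKO, against 21.5% and 20.7% of all genes tested. The T-type gene Cacna1h fell farthest. Cacna1h (chr17:25374285-25436334), a T-type channel that opens near the resting potential, had 4.71 and 4.39 RPKM (αHetγWT), 2.48 and 2.18 (αHetγKO), 2.65 and 2.88 (αKOγWT) and 0.80 and 0.84 (αKOγKO). The genotypes lacking 1 receptor lay between the reference and αKOγKO, with no overlap in either direction. Its log2 fold change was -2.60 ± 0.11 (SE, edgeR adjusted p = 1.54e-06) in αKOγKO, -0.71 ± 0.11 (edgeR adjusted p = 0.0168) in αKOγWT and -0.98 ± 0.11 (edgeR adjusted p = 0.072, DESeq2 past the threshold) in αHetγKO. The αKOγWT call was lost without any library of αHetγWT or αKOγWT (-0.79 to -0.65, adjusted p up to 0.211). Cacna1g, the other T-type gene, was less reduced: 13.0 and 16.2 RPKM in αHetγWT against 11.4 and 11.4 RPKM in αKOγKO (-0.49 ± 0.11, edgeR adjusted p = 0.00641). The share of Cacna1h in the summed T-type level was 26.5% and 21.3% in αHetγWT and 6.53% and 6.88% in αKOγKO.

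The L-type genes, whose channels open at stronger depolarisation, showed a different order. Cacna1c, the pore of the main calcium current of ventricular muscle, had 30.3 and 33.4 RPKM (αHetγWT), 30.2 and 29.5 (αHetγKO), 33.1 and 31.2 (αKOγWT) and 24.2 and 28.5 (αKOγKO). The fall of 0.40 on the log2 scale (SE 0.09, edgeR adjusted p = 0.00692) was small and was not past the threshold without αHetγWT replicate 2 (-0.31, adjusted p = 0.0675). Cacna1d (chr14:30039941-30491156), the L-type pore of atria and pacemaker tissue, had 1.94 and 2.28 RPKM (αHetγWT), 3.67 and 3.39 (αHetγKO), 6.15 and 5.99 (αKOγWT) and 1.81 and 1.72 (αKOγKO). It was highest in αKOγWT, also raised in αHetγKO, and slightly below the reference in αKOγKO. The log2 fold change was 1.53 ± 0.11 (edgeR adjusted p = 0.000648) in αKOγWT, 0.73 ± 0.11 (edgeR adjusted p = 0.163, DESeq2 past the threshold) in αHetγKO and -0.38 ± 0.11 (edgeR adjusted p = 0.0199) in αKOγKO. The αKOγKO call for Cacna1d did not hold when αHetγWT replicate 2 (-0.25, adjusted p = 0.158) or, separately, αKOγKO replicate 2 (-0.34, adjusted p = 0.0517) was left out, nor with limma (-0.17, adjusted p = 0.203). An exon of Cacna1d overlaps Chdh on the other strand, which lay between 0.12 and 0.49 RPKM.

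Cacna1a, the P/Q-type pore of nerve endings, took a like course, with 2.12 and 2.79 RPKM (αHetγWT), 3.93 and 3.99 (αHetγKO), 6.16 and 3.97 (αKOγWT) and 3.03 and 2.31 (αKOγKO). It did not pass the edgeR test in the 3 comparisons with αHetγWT, and its log2 fold change of 1.05 ± 0.22 in αKOγWT had an edgeR adjusted p of 0.0727, with a call there from DESeq2, with no filter, and without either αKOγKO library. Cacna1s, the skeletal muscle L-type pore, had 0.58 and 0.51 RPKM in αHetγWT and 1.40 and 1.13 RPKM in αKOγKO (1.08 ± 0.22, edgeR adjusted p = 0.00402). The summed skeletal muscle markers were higher in the same libraries, as given above, almost wholly through Acta1. Of the 6 tested, Myh8 and Tnnt3 were also higher and 3 did not pass. Tnnt3 had 0.96 and 0.80 RPKM in αHetγWT and 10.8 and 3.84 RPKM in αKOγKO.

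Of the 7 calcium channel auxiliary genes 2 were lower and 2 higher in αKOγKO, against 21.5% and 20.7% of all genes tested. Cacna2d1, the subunit that carries the pore to the membrane, had 27.0 and 25.3 RPKM (αHetγWT), 23.2 and 24.2 (αHetγKO), 22.6 and 19.9 (αKOγWT) and 13.5 and 14.0 (αKOγKO). Both αKOγKO libraries lay below all others (-1.05 ± 0.07, SE, edgeR adjusted p = 1.36e-05). Cacnb2, the main cardiac beta subunit, went from 22.6 and 26.7 RPKM in αHetγWT to 17.2 and 20.8 RPKM in αKOγKO, with αHetγKO at 20.0 and 18.7 and αKOγWT at 18.1 and 18.0. Its fall (-0.50 ± 0.11, edgeR adjusted p = 0.00643) was not past the threshold without αHetγWT replicate 2 (-0.36, adjusted p = 0.0628) or against the mean of the other 3 genotypes (-0.23, adjusted p = 0.0651). Of the other beta subunits Cacnb1 and Cacnb3 rose. Cacnb1, the skeletal muscle form, went from 4.78 and 4.57 RPKM to 8.75 and 10.2 RPKM (0.90 ± 0.12, edgeR adjusted p = 0.000388). Cacnb3, a beta form of smooth muscle and nerve, rose from 5.10 and 5.83 RPKM to 10.1 and 9.78 RPKM (0.74 ± 0.11, edgeR adjusted p = 0.000709). For both, the αKOγKO libraries lay above the other 6. The share of Cacnb2 in the summed beta level was 68.3% and 70.9% in αHetγWT, 57.5% and 58.3% in αKOγWT, and 47.0% and 50.4% in αKOγKO. Cacng7, Cacna2d2 and Cacnb4 did not pass the test, at 0.21, -0.44 and -0.28.

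**Figure D3:**
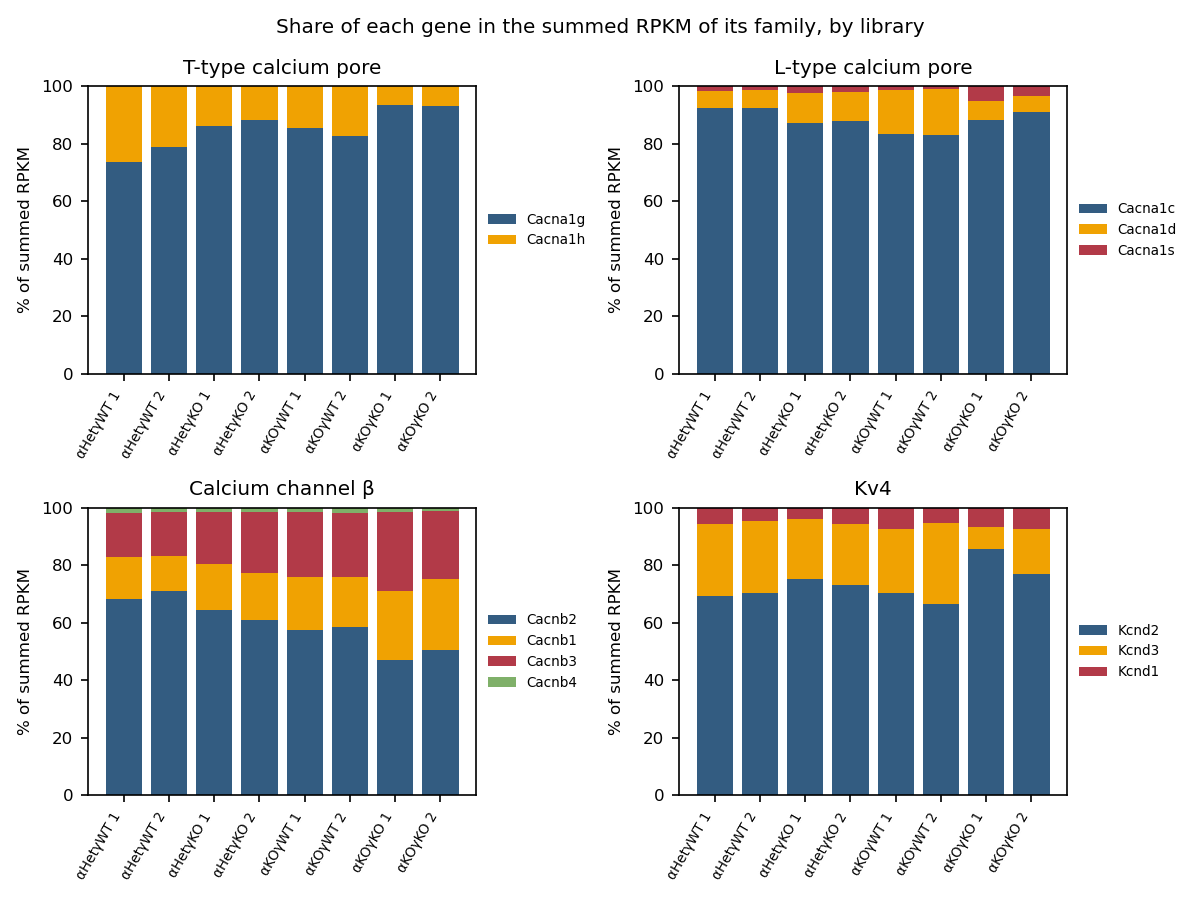
Share of each gene in the summed RPKM of its family (vertical axis, percent) in each of the 8 libraries, for the T-type, L-type, calcium channel β and Kv4 genes. In the αKOγKO bars Cacna1h falls to 6.53% and 6.88%, and Cacnb2 to 47.0% and 50.4%.

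Of the 18 voltage-gated potassium pore genes 8 were lower and 2 higher in αKOγKO, against 21.5% and 20.7% of all genes tested. Kcna5, the Kv1.5 pore of a fast-opening current in atria and mouse ventricle, had 22.1 and 21.9 RPKM (αHetγWT), 21.4 and 20.6 (αHetγKO), 20.8 and 16.4 (αKOγWT) and 10.9 and 6.44 (αKOγKO) (-1.46 ± 0.22, edgeR adjusted p = 0.00085). Kcnd3, a pore of the transient outward current, had 2.46 and 2.59 RPKM (αHetγWT), 2.03 and 1.93 (αHetγKO), 1.55 and 1.75 (αKOγWT) and 0.77 and 1.09 (αKOγKO) (-1.57 ± 0.16, edgeR adjusted p = 0.000115). Here the single losses again lay between reference and αKOγKO. Kcnd2, the main pore of that current in mouse ventricle, had 6.80 and 7.31 RPKM in αHetγWT and 8.52 and 5.36 RPKM in αKOγKO, which overlapped, and its log2 fold change of -0.14 turned to 0.15 without αKOγKO replicate 2 and to -0.53 (adjusted p = 0.0069) without replicate 1. The share of Kcnd3 in the summed Kv4 level was 25.0% and 24.9% in αHetγWT and 7.75% and 15.6% in αKOγKO.

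Kcnh6 and Kcns3 moved farthest, both from low levels. Kcnh6 (chr11:106008044-106035595), an ERG-type pore related to Kcnh2, was counted with 29 and 30 reads (αHetγWT), 15 and 13 (αHetγKO), 176 and 154 (αKOγWT) and 0 and 1 (αKOγKO). It was highest in αKOγWT, and both αKOγKO libraries together gave a single read. Summed over the 2 libraries of a genotype and set against their depth, the αHetγWT to αKOγKO ratio was 72.7 (95% interval 12.6 to 2920) and the αKOγWT to αKOγKO ratio 391 (69.7 to 15500), intervals that cover counting error only. The fitted log2 fold changes, which depend on the prior count at these read numbers, were -5.93 ± 0.62 in αKOγKO (edgeR adjusted p = 0.000119) and 2.43 ± 0.31 in αKOγWT (edgeR adjusted p = 0.0104). The rise in αKOγWT was not past the threshold without any library of αHetγWT or αKOγWT (2.35 to 2.49, adjusted p up to 0.158). Kcns3 (chr12:11090202-11151168), a silent subunit that acts only together with other pores, was counted with 18 and 9 reads (αHetγWT), 18 and 18 (αHetγKO), 18 and 14 (αKOγWT) and 333 and 97 (αKOγKO). Both αKOγKO libraries were above all others but differed from each other, and the log2 fold change of 3.56 ± 0.63 (edgeR adjusted p = 0.00214) was 2.40 without replicate 1 and 4.19 without replicate 2.

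Kcnv2, another silent subunit, had 1.12 and 0.79 RPKM (αHetγWT), 0.62 and 0.79 (αHetγKO), 0.35 and 0.31 (αKOγWT) and 0.21 and 0.16 (αKOγKO). It fell in both genotypes lacking ERRα, by -2.48 ± 0.29 in αKOγKO (edgeR adjusted p = 0.000215) and -1.52 ± 0.27 in αKOγWT (edgeR adjusted p = 0.0387). Kcnv2 reached the limit of 0.5 RPKM only through the αHet genotypes, so these falls are not independent of the choice of members. The αKOγWT call was lost when any αHetγWT, αHetγKO or αKOγWT library was left out (-1.75 to -1.26, adjusted p up to 0.388). Kcna1, a Kv1 pore best known from nerve, went from 1.54 and 1.38 RPKM to 0.51 and 0.77 RPKM in αKOγKO (-1.31 ± 0.21, edgeR adjusted p = 0.00131). Kcna4, the pore of the slow transient outward current, rose from 0.46 and 0.37 RPKM to 0.78 and 1.78 RPKM (1.49 ± 0.36, edgeR adjusted p = 0.01), at 0.79 without αKOγKO replicate 2 and 1.96 without replicate 1. It was not past the threshold without αHetγWT replicate 2 (1.35, adjusted p = 0.0763). Kcnh2, the rapid delayed rectifier ERG pore, had 37.1 and 39.3 RPKM in αHetγWT and 25.5 and 36.4 RPKM in αKOγKO. Its fall (-0.43 ± 0.13, edgeR adjusted p = 0.0303) was -0.21 without αKOγKO replicate 1 (adjusted p = 0.0656), -0.48 and -0.38 without an αHetγWT library (adjusted p = 0.0826 and 0.154) and not past the threshold without an αHetγKO library (adjusted p = 0.0583 and 0.0585). Kcna7 was also lower (-0.75 ± 0.25, edgeR adjusted p = 0.0429), at 1.54 and 1.80 RPKM (αHetγWT), 0.97 and 0.72 (αKOγWT) and 1.21 and 0.96 (αKOγKO). The call was lost without either αHetγWT library or αKOγKO replicate 2, with upper-quartile factors and with limma. It was also lost with αKOγKO and αHetγWT fitted alone and against the mean of the other 3 genotypes. Kcnq1, the slow delayed rectifier pore that Kcne1 joins, was at 19.3 and 20.7 RPKM in αHetγWT and 17.1 and 23.3 RPKM in αKOγKO (-0.12 ± 0.14, edgeR adjusted p = 0.539). Its log2 fold change was -0.35 without αKOγKO replicate 2, past the threshold (adjusted p = 0.0284), and 0.08 without replicate 1.

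**Figure D4:**
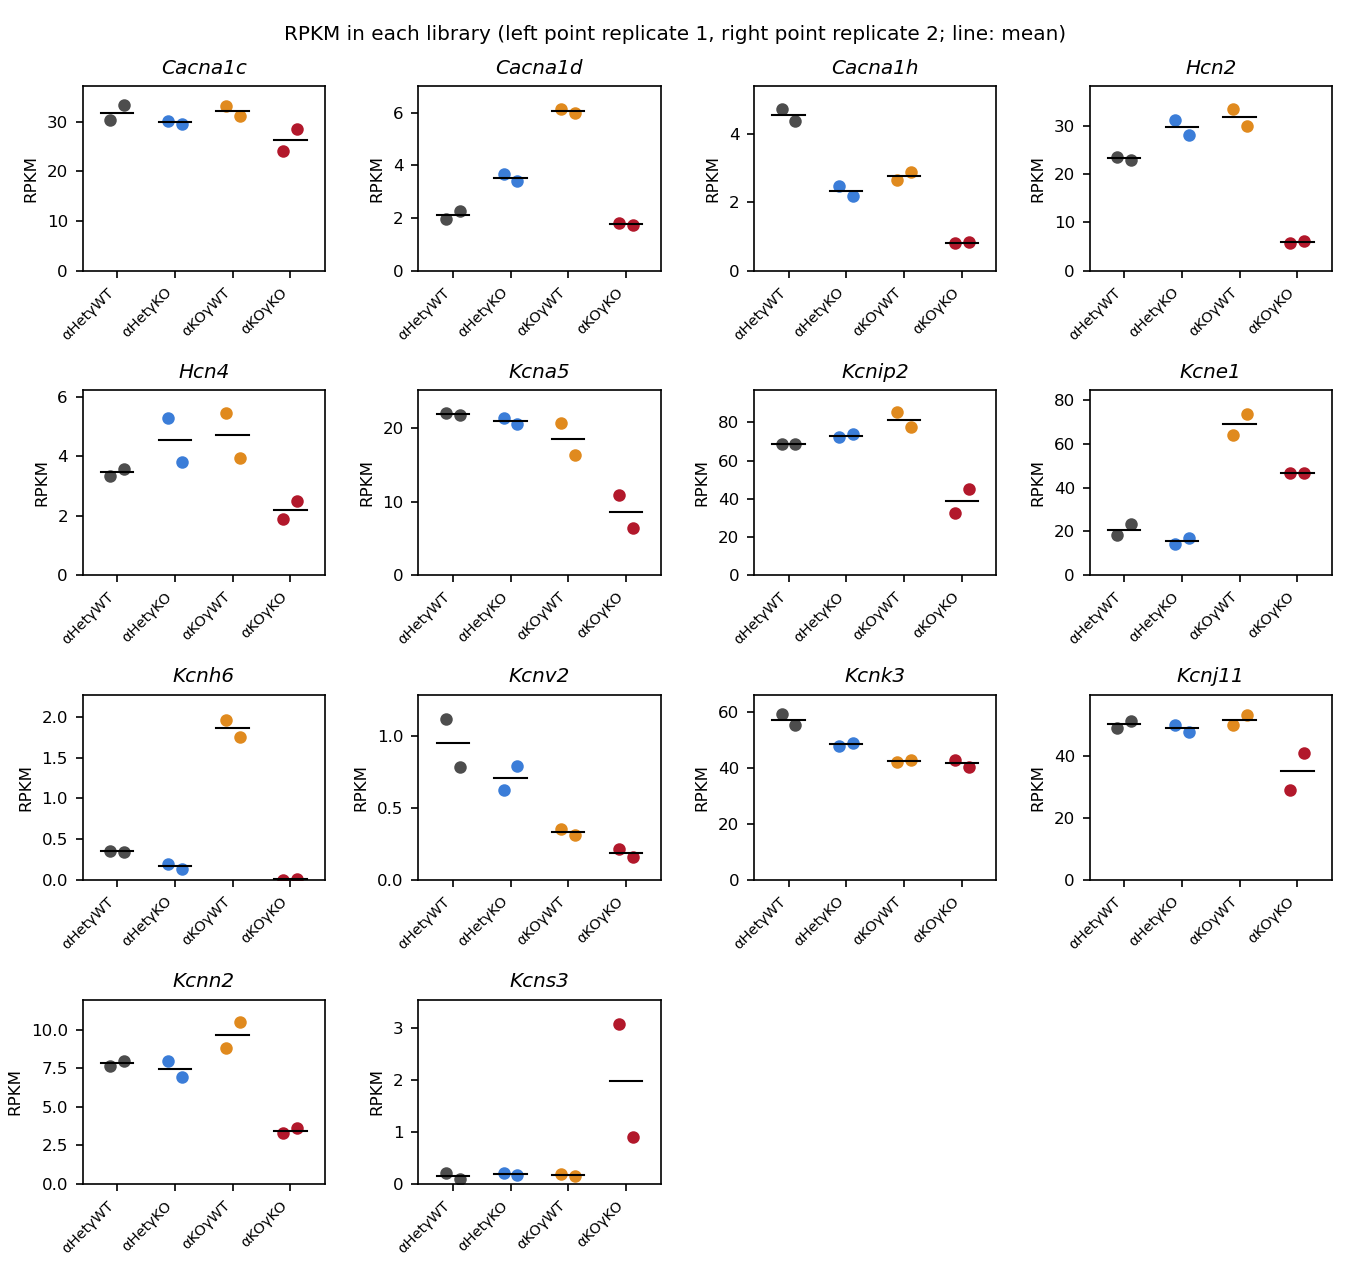
RPKM of 14 channel genes in each library (left point replicate 1, right point replicate 2, line the mean of the 2), by genotype, with each vertical axis starting at 0. Hcn2 and Kcnip2 are low in αKOγKO alone, Cacna1h is lower in both single losses and lowest in αKOγKO, Cacna1d and Kcnh6 are highest in αKOγWT (up to 6.15 and 1.97 RPKM), and Kcne1 is raised in both genotypes lacking ERRα.

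Of the 10 potassium channel auxiliary genes 4 were lower and 2 higher in αKOγKO, against 21.5% and 20.7% of all genes tested. Kcnip2, the subunit that joins Kv4 pores in the transient outward channel and the member with the highest mean level, had 68.7 and 68.9 RPKM (αHetγWT), 72.3 and 73.7 (αHetγKO), 85.3 and 77.5 (αKOγWT) and 32.7 and 45.1 (αKOγKO). Both αKOγKO libraries lay below the rest (-0.95 ± 0.13, SE, edgeR adjusted p = 0.000496). Kcne1 (chr16:92346001-92359468), the partner of Kcnq1, had 18.1 and 23.3 RPKM (αHetγWT), 14.0 and 16.7 (αHetγKO), 64.2 and 73.7 (αKOγWT) and 46.5 and 46.5 (αKOγKO). The 4 αKO libraries lay above the 4 αHet libraries with a wide gap. Its log2 fold change was 1.74 ± 0.14 in αKOγWT (edgeR adjusted p = 0.00118) and 1.04 ± 0.13 in αKOγKO (edgeR adjusted p = 0.000387). Kcne1l, also named Kcne5, a single-span relative, went from 0.74 and 0.64 RPKM to 2.29 and 1.88 RPKM in αKOγKO (1.48 ± 0.33, edgeR adjusted p = 0.00646), not past the threshold without αHetγWT replicate 2 (1.39, adjusted p = 0.0515). Kcnab3, a beta subunit of Kv1 pores, went from 0.66 and 0.93 RPKM to 0.30 and 0.39 RPKM (-1.34 ± 0.46, edgeR adjusted p = 0.0443), and lost its call without αHetγWT replicate 1 (-1.57), αHetγWT replicate 2 (-1.06), αKOγKO replicate 1 (-1.18) or αKOγKO replicate 2 (-1.53). Kcnab1 (-0.98) and Kcnmb1 (-0.70), the latter a subunit of large-conductance channels in smooth muscle, were the other lower members, and both lost their call without either αHetγWT or either αHetγKO library. Kcnab1 also lost it without αKOγKO replicate 1, and Kcnmb1 also without either αKOγWT library or αKOγKO replicate 2, with upper-quartile factors, DESeq2, limma and no filter.

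The 7 inward rectifiers, among them the pores of the resting current, gave 3 lower and 1 higher, against 21.5% and 20.7% of all genes tested. Kcnj11, the pore of the ATP-sensitive channel of heart muscle, had 49.2 and 51.6 RPKM (αHetγWT), 50.2 and 47.99 (αHetγKO), 50.2 and 53.2 (αKOγWT) and 29.1 and 41.1 (αKOγKO) (-0.65 ± 0.13, SE, edgeR adjusted p = 0.00466). Kcnj8, the ATP-sensitive pore of vessel walls, had 29.1 and 30.7 RPKM (αHetγWT), 26.9 and 26.8 (αHetγKO), 30.8 and 24.7 (αKOγWT) and 17.7 and 18.1 (αKOγKO) (-0.86 ± 0.10, edgeR adjusted p = 0.000223). Both genes lay below all 6 other libraries in αKOγKO, and of the mural markers Rgs5, Myh11 and Abcc9 were also lower there while Acta2, Cspg4 and Tagln were higher. Of the regulators of these channels, Abcc8 stood at 30.1% and 33.2% of the sum of Abcc8 and Abcc9 in αHetγWT and at 51.2% and 49.0% in αKOγKO, and Abcc9 is also on the mural marker list. Kcnj2, the main pore of the resting current, went from 12.7 and 12.9 RPKM to 6.68 and 11.2 RPKM, and αKOγWT, at 10.8 and 9.84 RPKM, overlapped αKOγKO. Its log2 fold change of -0.64 ± 0.19 (edgeR adjusted p = 0.0225) was -0.33 without αKOγKO replicate 1 and -1.05 without replicate 2, and it was not past the threshold without αHetγWT replicate 1 (-0.66, adjusted p = 0.0856) or replicate 2 (-0.62, adjusted p = 0.102). Kcnj12, a second pore of that current, was at 6.41 and 6.61 RPKM in αHetγWT and 6.82 and 9.997 RPKM in αKOγKO (0.24 ± 0.15, edgeR adjusted p = 0.234), with 0.48 (adjusted p = 0.00339) without αKOγKO replicate 1 and -0.05 without replicate 2. The acetylcholine-gated pair Kcnj3 and Kcnj5, channels mainly of the atria, did not pass the test (-0.55 ± 0.21 and -0.48 ± 0.27), and Kcnj5 stood at 16.3 RPKM in αKOγKO replicate 1 and 34.7 in replicate 2 against 33.3 and 31.7 in αHetγWT. Without αKOγKO replicate 2 both passed, at -1.02 and -1.12, and without replicate 1 they were at -0.20 and -0.04 (adjusted p = 0.19 and 0.799). Kcnj15, a pore known from kidney and pancreas, rose from 0.90 and 0.83 RPKM to 5.91 and 1.67 RPKM (2.02 ± 0.49, edgeR adjusted p = 0.0103), at 0.82 without αKOγKO replicate 1 and 2.65 without replicate 2, and lost its call without αHetγWT replicate 1 (2.06, adjusted p = 0.0652) or replicate 2 (1.97, adjusted p = 0.0712).

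Among the 3 K2P channels, which leak potassium at rest, Kcnk3 was lower in both genotypes that lack ERRα. Kcnk3, or TASK1, had 59.2 and 55.3 RPKM (αHetγWT), 48.04 and 49.02 (αHetγKO), 42.1 and 42.7 (αKOγWT) and 43.0 and 40.5 (αKOγKO). The αHetγWT libraries lay above the other 6, and αKOγWT and αKOγKO did not separate. The log2 fold change was -0.58 ± 0.07 in αKOγKO (edgeR adjusted p = 0.00026), -0.43 ± 0.07 in αKOγWT (edgeR adjusted p = 0.0262) and -0.25 ± 0.07 in αHetγKO (edgeR adjusted p = 0.835). The αKOγWT call was lost when any αHetγWT, αHetγKO or αKOγWT library was left out (-0.47 to -0.39, adjusted p up to 0.314). Like 6 other members, Kcnk3 shares exon positions with a listed gene on the other strand, here Gm9899, and the counting is not stated to use strand. Gm9899 had 5.79 and 5.37 RPKM (αHetγWT), 4.91 and 4.81 (αHetγKO), 3.34 and 3.62 (αKOγWT) and 3.41 and 4.67 (αKOγKO). Its log2 fold change was -0.59 ± 0.14 in αKOγKO (edgeR adjusted p = 0.00808) and -0.67 ± 0.14 in αKOγWT (edgeR adjusted p = 0.0658). Kcnk6 and Kcnk2 did not pass the test (-0.04 and 0.15). Of the calcium- or sodium-activated pores, the SK channels Kcnn2 and Kcnn1, which open with calcium and act in atria and pacemaker cells, both fell. Kcnn2 had 7.63 and 7.99 RPKM (αHetγWT), 7.996 and 6.95 (αHetγKO), 8.80 and 10.51 (αKOγWT) and 3.29 and 3.65 (αKOγKO) (-1.30 ± 0.14, edgeR adjusted p = 0.000139). Kcnn1 went from 3.66 and 3.32 RPKM to 1.61 and 1.89 RPKM (-1.12 ± 0.14, edgeR adjusted p = 0.000327). For both, the αKOγKO libraries lay below the other 6. Kcnt2, a sodium-activated pore, rose from 0.82 and 0.85 RPKM to 2.00 and 1.43 RPKM (0.91 ± 0.26, edgeR adjusted p = 0.0202), a call lost without αHetγWT replicate 1 (0.88), αHetγWT replicate 2 (0.95) or αKOγKO replicate 1 (0.64), at adjusted p of 0.106, 0.084 and 0.0899.

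Loss of a single receptor moved few channel genes past the threshold. In αHetγKO hearts 0 of 63 were higher and 0 lower, against 0.00663% and 0% of all genes tested. At an unadjusted p under 0.05 edgeR gave 11 of the 63 members and 748 of all 15076 genes tested. DESeq2 called Cacna1d higher and Cacna1h lower, where it called 23 of all genes higher and 18 lower. In αKOγWT hearts 4 members were higher (Kcne1, Cacna1d, Kcnh6 and Hcn2) and 3 lower (Cacna1h, Kcnk3 and Kcnv2), against 0.743% and 0.491% of all genes tested. Kcnh6 was a member only through its level in αKOγWT, so its rise there is not independent of the choice of members. At an unadjusted p under 0.05 edgeR gave 19 members there, and 2181 of all 15076 genes tested. Only Kcne1 and Cacna1d of the 7 kept their call under all 15 alternatives tried for them. Fewer members were called when any library of αHetγWT, αHetγKO or αKOγWT was left out, and more without either αKOγKO library. Calls over all genes tested moved in the same way.

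The interaction sets the response to ERRγ loss when ERRα is absent against the response when a copy of ERRα remains, and asks whether both losses together differ from the sum of each alone on the log2 scale. It was past the threshold in 21 members, 19 negative and 2 positive (edgeR), where 10.7% of all genes tested were negative and 6.77% positive. The effect of ERRγ loss was below 0 in 43 of 63 members in αKO hearts (median -0.27) and in 29 of 63 in αHet hearts (median 0.03). These counts were not made over all genes tested and describe the members only. Hcn2 and Hcn4 had a negative interaction, Hcn2 at -2.87 ± 0.12 (SE, edgeR adjusted p = 2.16e-05) and Hcn4 at -1.62 ± 0.30. So did 4 of the 6 calcium pores, with Cacna1d at -2.64 ± 0.15 (edgeR adjusted p = 3.41e-05) and Cacna1a at -1.73 ± 0.31 (edgeR adjusted p = 0.0064), whose levels in the single losses stood above both αHetγWT and αKOγKO. Cacna1h, at -0.91 ± 0.15 (edgeR adjusted p = 0.0046), was lower in αKOγKO than its values in the 2 single losses add up to, but with limma the interaction was -0.31 and not past the threshold (adjusted p = 0.152). For Kcne1 the interaction was -0.25 ± 0.19 (edgeR adjusted p = 0.409), and for Kcnk3 0.10 ± 0.10 (edgeR adjusted p = 0.541). The positive cases were Kcne4, a Kv auxiliary subunit, at 1.03 ± 0.30 (edgeR adjusted p = 0.0458) and Cacnb1 at 0.56 ± 0.16 (edgeR adjusted p = 0.0478). Both lost their call with the replicate block (adjusted p = 0.0531 and 0.0673) and whenever 1 library was left out, except αKOγKO replicate 2 for Kcne4 and αKOγKO replicate 1 for Cacnb1. Under every alternative tried (15 for each gene, 14 for Kcnh6), 11 of the 21 kept their call, among them Hcn2, Hcn4, Cacna1d, Cacna1a, Cacna2d1, Kcnh6, Kcnip2, Kcnn1 and Kcnn2. Kcnh6 was a member only through αKOγWT, a level that the interaction subtracts, so its interaction is not independent of the choice of members. Fewer interactions passed when any library of αHetγWT, αHetγKO or αKOγWT was left out, and more without either αKOγKO library, among the members and over all genes tested.

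**Figure D5:**
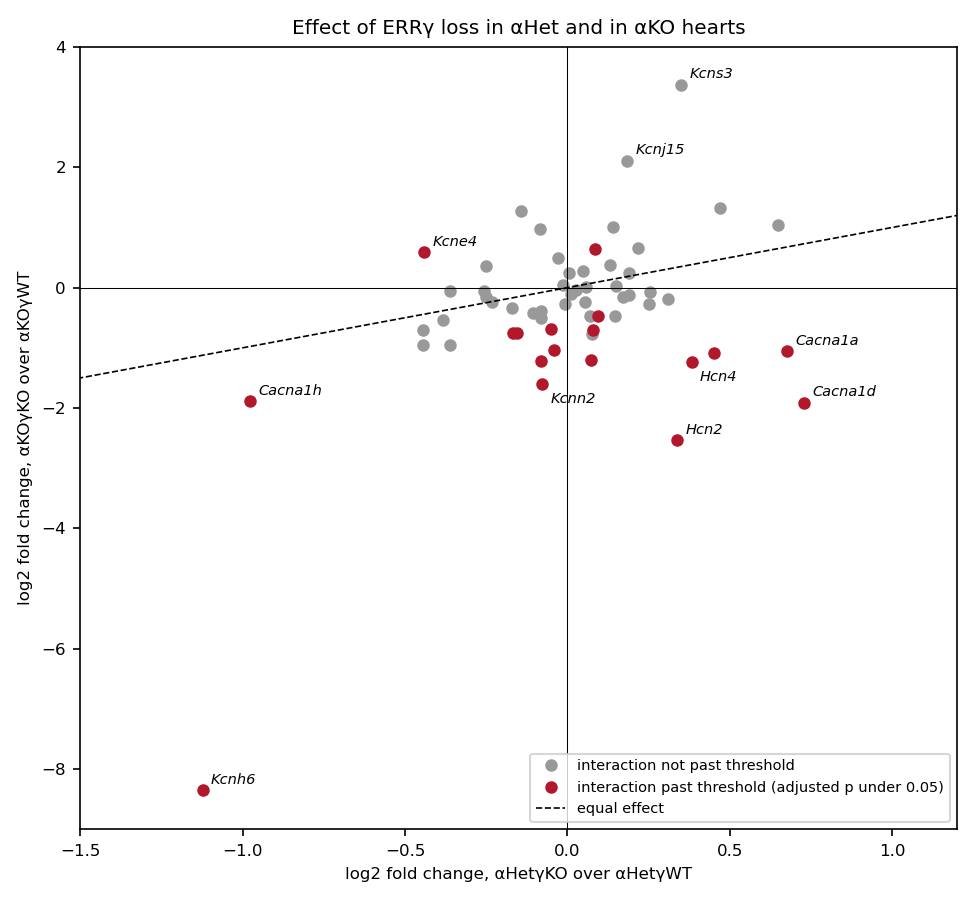
Log2 fold change with ERRγ loss in αHet hearts (horizontal axis) and in αKO hearts (vertical axis) for 59 of the 63 channel genes; the dashed line marks equal effects, and red points are the 18 of these whose interaction passed the threshold. Hcn2, Cacna1d and Kcnh6 lie far below the line, and 40 of the 59 points lie below 0 on the vertical axis, a count not made over all genes.

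Of 24 listed partners of these channels 22 were tested, and 6 were higher and 6 lower in αKOγKO, with a median log2 fold change of 0.14, where 20.7% of all genes were higher and 21.5% lower. Rangrf, a factor that binds the nuclear transport protein Ran, was the most clearly lower (-1.49 ± 0.11, edgeR adjusted p = 1.96e-05), followed by Tmem65, a protein of the intercalated disc (-0.68 ± 0.08, edgeR adjusted p = 0.000166), and the membrane anchor Ank2 (-0.57 ± 0.07, edgeR adjusted p = 0.000296). Fgf12, an intracellular modulator of sodium channels that is also on the atrial marker list, was higher (1.46 ± 0.21, edgeR adjusted p = 0.000749), at 19.3 and 24.2 RPKM in αKOγKO and 5.83 to 9.61 RPKM elsewhere. Of 20 genes of gap junctions and conduction control, 4 were higher and 2 lower (median 0.13), against the same 20.7% and 21.5% of all genes. Tbx3, a repressor that keeps nodal identity, fell by 0.82 on the log2 scale (SE 0.12, edgeR adjusted p = 0.000773), and Hopx fell by 1.49 (SE 0.22, edgeR adjusted p = 0.000732). The transcription factors Etv1, of the fast conduction network, and Tbx20 rose by 0.90 ± 0.11 and 0.74 ± 0.10. Gja1, the main connexin of the ventricle, was at 0.05 ± 0.12.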

How the data were processed

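Total RNA of pooled mouse hearts was made into TruSeq libraries and sequenced as paired ends. The authors deposited, for each of 8 libraries, the count of uniquely assigned reads per gene and the RPKM made from it, on build mm10. RPKM recomputed from the deposited counts and gene lengths matched within a relative 1e-06. A deposited coverage score, not defined in the headers, and the gene length were not analysed as measurements. Aligner and counter are not given in the sources used here. Genes are listed by GeneID, and symbols came from the RefSeq table of GRCm38.p6 (44 IDs had none).

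Counts were tested with edgeR 4.0.16 (R 4.3.3): filterByExpr set to 10 reads and 15 in total (15076 genes), TMM factors, a mean per genotype over all 8 libraries (4 residual degrees of freedom), the quasi-likelihood F test, and Benjamini-Hochberg adjustment over all genes, with 0.05 as threshold. On simulated counts, changes of 1.5, 2 and 4-fold in αKOγKO were called in 32.8%, 76.1% and 97.0% of the changed genes. For the interaction the shares were 11.9%, 62.7% and 90.9%. Against αHetγWT, 20 unchanged genes were called beside 22, 51 and 64 changed ones. The simulation gave all genotypes the same spread and so did not include the wider spread of αKOγKO. SE is the size of the log2 fold change divided by the square root of F, and so uses the spread shared by all genotypes. The members differed more between the αKOγKO replicates (median log2 difference 0.39) than between those of the other genotypes (0.13 to 0.20). The SE of comparisons with αKOγKO may therefore be too small. Alternatives used DESeq2 1.42.0, limma 3.58.1 on log2(RPKM + 1), other scalings, filters, references, membership limits, a replicate block and each library left out. P-values measure the spread between pools, which may be technical. Figures used matplotlib 3.10.9.

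The genes named with values were the 10 largest rises and falls past the threshold in αKOγKO, up to 5 each way in the other comparisons, known heart channel genes, the 3 on each side of the RPKM limit, and up to 4 of each partner list by adjusted p. Other members past the threshold in αKOγKO were named, after their values were seen, to complete the counts. The members, gene lists and markers were chosen with earlier results of these data known. Results of 4 members are counted in the totals but not reported here by name, in the text or the figures.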

Additional observations from a re-analysis of the deposited data

Results flagged for a closer look

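For the 18 channel genes named here the response to ERRγ loss with ERRα absent was tested against that with a copy of ERRα, and the interaction passed the threshold (edgeR, adjusted p under 0.05, 2 libraries per genotype). The values are the log2 fold change of αKOγKO over αKOγWT less that of αHetγKO over αHetγWT. The most negative were Kcnh6 at -7.23, which rests on 1 read in αKOγKO, Hcn2 at -2.87 and Cacna1d at -2.64. Kcnh6 was a member only through αKOγWT, so its value is not independent of the choice of members. Cacna1a followed at -1.73, Hcn4 at -1.62, Kcnn1 at -1.54, Kcnn2 at -1.53, Kcnip2 at -1.27 and Kcna5 at -1.14. The smaller negative ones were Kcna1 at -0.99, Cacna1h at -0.91, Kcnh2 at -0.78, Kcnj11 at -0.64, Cacna2d1 at -0.60, Kcnj8 at -0.59 and Cacna1g at -0.57. The positive ones were Cacnb1 at 0.56 and Kcne4 at 1.03. Under some alternatives 9 of them lost the call. Cacnb1 and Kcna1 lost it in 10 of 15, Kcne4 and Kcnj11 in 8, Kcnh2 in 7, Kcnj8 in 6, Kcna5 and Cacna1g in 5, and Cacna1h in 1.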

How the results depend on the processing

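With each library left out in turn, the members higher in αKOγKO numbered 5 to 11 and those lower 19 to 31, the fewest without αHetγWT replicate 2. The corresponding ranges were 0 to 1 higher and 0 to 1 lower in αHetγKO, 2 to 6 and 0 to 9 in αKOγWT, and 0 to 7 positive and 12 to 25 negative for the interaction. DESeq2's Wald test gave 1 higher and 1 lower in αHetγKO and 7 lower in αKOγWT, and fitting with no filter gave 1 lower in αHetγKO. With limma, 22 members were lower in αKOγKO (Cacna1d, Hcn4, Kcna7, Kcnab3, Kcnh2, Kcnj2 and Kcnmb1 lost their call) and 13 interactions negative. Equal replicate numbers did not pair the libraries (correlations of their deviations from -0.195 to 0.09), and with a replicate block 11 members were higher and 29 lower in αKOγKO, 4 and 3 in αKOγWT, 0 and 0 in αHetγKO, and 1 interaction was positive (Kcns3, while Kcne4 and Cacnb1 lost their call) and 18 negative. Of the 36 named genes called in αKOγKO, 23 kept their call under every alternative and 0 changed direction. Signs turned only among log2 fold changes not past the threshold in αKOγKO. Cacna1a was 0.046 with upper-quartile factors, 0.087 with limma, 0.007 with no filter, 0.01 among genes averaging 1 RPKM or more, and -0.225 to 0.223 with a library left out (0.18 without αKOγKO replicate 2). Kcnd2 was 0.077 against the mean of the other 3 genotypes and -0.531 to 0.15 with a library left out, Kcnq1 -0.349 to 0.082, Kcnj12 -0.054 to 0.483, and Kcnd1 -0.164 to 0.181, with -0.063 without αHetγWT replicate 2. The cause of these shifts was not tested.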
